A study of Mus musculus with 20 samples.

Results

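The steady-state RNA of mouse embryonic stem cells (ESCs) carrying a tagged Tet1 was set against that of ESCs carrying a tagged Tet2, using the input libraries of an RNA immunoprecipitation experiment. An input library holds total RNA of the cells without pull-down, so it reports gene expression and not Tet binding. Of the 20 libraries of the series, 10 were inputs, and 4 of these were compared here: Tet1 inputs 1 and 2 and Tet2 inputs 3 and 4. They were chosen because the numbering of the deposited data places these 4 in 1 library set together with inputs 3 and 4 of another line, Tet2dRBD. The labels do not state library sets. The remaining 4 inputs (Tet2 1 and 2, Tet2dRBD 1 and 2) came from other sets and were used only to see how far a Tet2-tagged line ranged.

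Both lines were made from ESCs given only as WT, with Flag, HA and Twin-Strep tags placed at the C terminus of the endogenous Tet1 or Tet2 protein by the CRISPR nickase Cas9n. In the Tet2dRBD line the Tet2 template lacked the RNA-binding domain. All lines were grown on gelatin-coated plates in medium with serum and leukemia inhibitory factor (LIF), and none received a treatment. Clones were picked from the transfected cells, so the tagged gene, the clone and its culture history cannot be told apart in any comparison of the lines. The study calls its libraries biological duplicates, but the labels do not say that the 2 libraries of a line came from separate cultures, and p-values then measure only the spread between these libraries, which may be technical.

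Tet1 and Tet2 are dioxygenases that oxidise 5-methylcytosine in DNA and in RNA, and both are expressed in mouse ESCs. ESCs in serum and LIF hold a naive-like identity under Pou5f1 (Oct4), Sox2 and Nanog, while a few cells at any time express early-lineage genes, such as those of the primitive endoderm or of the 2-cell embryo. Lines derived from single cells are known to drift apart in culture, in imprinted genes, in metabolism and in chromosome number.

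The target sites that define the lines are shown first, because they locate the only designed difference between them. Sequences are the study's designed guides, read 5′ to 3′, and the capitals mark the PAM, the motif next to which Cas9n cuts. Each had 1 exact match in the mm9 (NCBIM37) genome.

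Tet1 guide 1: ctttagacccaacgattgtaGGG
Tet1 guide 2: atgtaatgcctttgctaatgTGG
Tet2 guide 1: cgtcatacaaatgtgttgtaAGG
Tet2 guide 2: gccattaggccagaccaccaAGG

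Tet1 guide 1 lies at chr10:62275278-62275300 on the plus strand and overlaps the Tet1 stop codon, chr10:62275280-62275282. Tet1 guide 2 lies at chr10:62275246-62275268 on the minus strand, past the stop codon in the direction of transcription, since Tet1 is itself on the minus strand. Tet2 guide 1 lies at chr3:133129699-133129721 on the plus strand and overlaps the Tet2 stop codon, chr3:133129701-133129703. Tet2 guide 2 lies at chr3:133129673-133129695 on the minus strand, also past the stop codon of a minus-strand gene.

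The 4 libraries were alike in depth, with totals of 23061271 and 22539260 expected counts in the Tet1 inputs and 23100695 and 22873316 in the Tet2 inputs. Of 23284 genes, 12759 reached 1 CPM (a count scaled to library size) in at least 2 of the 4 libraries and were tested, and 5033 had no count in any of the 4. The 10 defining ESC markers were all above 10 TPM (transcript level scaled for gene length and library size) in all 4 libraries. Their summed level was 18015 and 18038 TPM in the Tet1 inputs and 18213 and 17721 TPM in the Tet2 inputs. The label as ESCs therefore matched the markers in both lines.

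Globally the 2 lines resembled each other closely but not as closely as replicates of a line in the same library set did. Across 11683 genes the Pearson correlation of log2(TPM + 1) was 0.9936 within the Tet1 line and 0.9955 within the Tet2 line, against 0.9657 to 0.9661 for the 4 pairs of libraries across lines. Tet2 inputs 1 and 2, of other library sets, correlated with Tet2 inputs 3 and 4 at 0.9134 to 0.9561, below the values across lines. These points are genes, not independent replicates. A gene differed by a median of 1.08-fold between the Tet1 replicates and 1.06-fold between the Tet2 replicates, and by 1.28- to 1.3-fold between a Tet1 and a Tet2 input. Of 11503 genes, 32 (0.278%) lay more than 2-fold apart between the Tet1 replicates and 23 (0.2%) between the Tet2 replicates. Across lines this was 1071 to 1109 genes, or 9.31% to 9.64%.

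Because replicates were this close, small differences passed the test. In edgeR's quasi-likelihood test, with p-values adjusted by Benjamini-Hochberg, 7632 of the 12759 genes tested, 59.8%, differed at an adjusted p below 0.05. Of these, 3896 (30.5%) were higher and 3736 (29.3%) lower in the Tet1 line. Most genes tested were therefore called, and 3943 of the called genes (51.7%) differed by less than 1.5-fold. At 2-fold or more, 1404 genes (11.0%) were called, 574 higher (4.50%) and 830 lower (6.51%). The split between higher and lower depended on the scale: on log2(TPM + 0.1) it was 671 higher and 599 lower, and on log2(TPM + 1) 344 and 315. Ratios were taken from the counts, and levels are given in TPM, which also corrects for length.

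**Figure D1:**
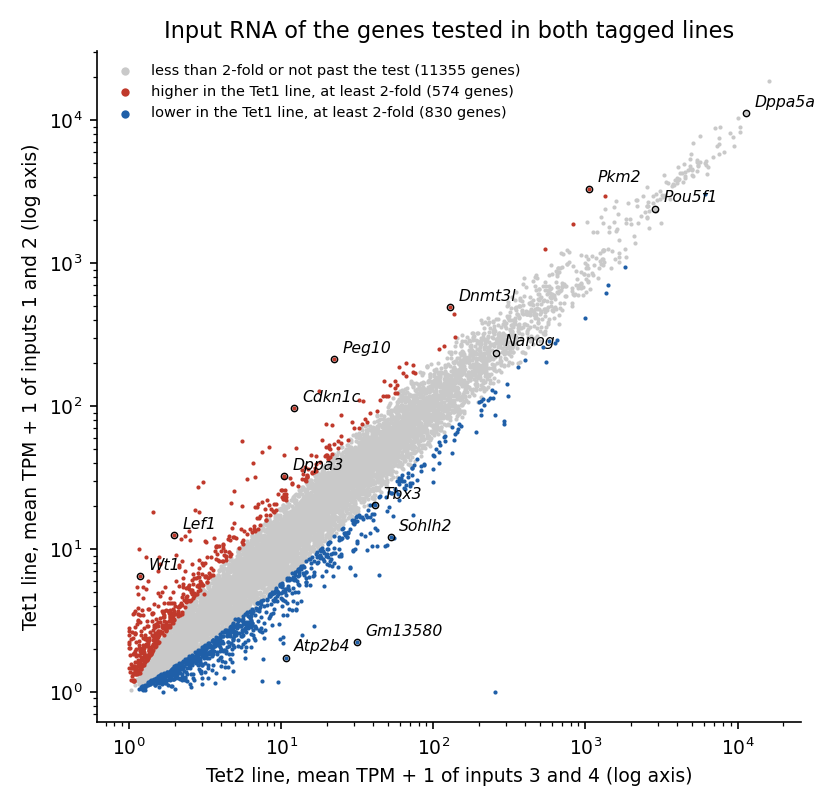
Mean TPM + 1 of Tet2 inputs 3 and 4 (horizontal, log axis) against mean TPM + 1 of Tet1 inputs 1 and 2 (vertical, log axis), 1 point a gene, for the 12759 genes tested. Red points are the 574 genes at least 2-fold higher and blue points the 830 at least 2-fold lower in the Tet1 line; they lie mostly at low levels, while Pou5f1 and Dppa5a sit at the high end near equality.

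The genes that differed by 2-fold or more were mostly weakly expressed. Their median level was 2.71 TPM, against 10.5 TPM over all genes tested. Among 4432 genes under 5 TPM, 20.2% differed by at least 2-fold, and among 2439 genes at 50 TPM or more, 4.14% did. In all they held 3.27% and 3.38% of the TPM of the Tet1 inputs and 3.75% and 3.74% of that of the Tet2 inputs.

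The remaining inputs showed how far these differences belonged to all Tet2-tagged libraries. For 822 of the 1404 genes (58.5%; 6.44% of all genes tested) both Tet1 inputs lay outside the range of all 4 Tet2 inputs, on the same side as the call. For 582 genes they did not: at least 1 of the 4 Tet2 inputs reached the level of a Tet1 input. In the Tet2dRBD inputs of the same library set, the level was nearer to the Tet2 line for 1049 of the 1404 genes and nearer to the Tet1 line for 355. Among all calls, 12.3% of genes tested were called higher with both Tet1 inputs above every Tet2 input, and 9.96% were called lower with both below. These were 40.4% of all higher calls and 34.0% of all lower calls, the shares beside which the counts of lists are to be read. Such a gene is said here to lie above, below or beyond all 4 Tet2 inputs. That reading was added after the values were seen, and Tet2 inputs 1 and 2 also differ from the others by library set.

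The tagged genes themselves differed modestly. Tet1, at chr10:62267318-62361866 (mm9), had 17.2 and 13.6 TPM in the Tet1 inputs and 8.54 and 8.75 TPM in the Tet2 inputs. Both Tet1-line libraries were above both Tet2-line libraries, and above the 11.7 and 12 TPM of Tet2 inputs 1 and 2, while 1 Tet2dRBD input reached 17.1 TPM. The log2 ratio was 0.74 (SE 0.08, adjusted p = 1.27e-10), or 1.67-fold, with means of 15.4 ± 2.57 and 8.64 ± 0.148 TPM (SD, n = 2 each). Tet2, at chr3:133126643-133207354, had 6.77 and 4.96 TPM in the Tet1 inputs and 6.46 and 7.12 TPM in the Tet2 inputs. The Tet2 levels overlapped between the lines, and the log2 ratio of -0.31 (SE 0.10, adjusted p = 0.00687) lost its call without Tet1 input 2, without Tet2 input 4, on TPM with limma and when the other inputs were fitted with these 4. Tet3, the untagged relative, was low throughout, at 1.55 and 1.27 TPM against 0.81 and 1.03 TPM (log2 ratio 0.52, SE 0.16, adjusted p = 0.00364), and its call was lost without Tet2 input 3. The tags lie at the 3′ end of the coding sequence and leave most of each transcript unchanged, so these levels do not test the labels.

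Core pluripotency genes were expressed in both lines, with members moving in both directions. All 24 listed genes were tested: 7 were higher, 8 lower and 9 did not pass, with a median log2 ratio of -0.07 against 0.0 over all genes tested. Of the 7 higher, 5 lay above all 4 Tet2 inputs, and of the 8 lower, 7 lay below them. Over all genes tested, 40.4% of higher calls and 34.0% of lower calls did so. Pou5f1, the transcription factor without which ESCs lose their identity, had 2358 and 2450 TPM in the Tet1 inputs and 2843 and 2880 TPM in the Tet2 inputs (log2 ratio -0.35, SE 0.09, adjusted p = 0.000503). The groups did not overlap, yet Tet2 inputs 1 and 2, at 2000 and 2901 TPM, lay on either side of the Tet1 values. Sox2, the partner of Pou5f1, had 201 and 183 TPM against 242 and 255 TPM (log2 ratio -0.47). Nanog had 235 TPM in both Tet1 inputs and 255 and 259 TPM in the Tet2 inputs, a log2 ratio of -0.22 (SE 0.08, adjusted p = 0.0129) that lost its call without Tet2 input 3 and without Tet2 input 4. These 3 central factors were lower in the Tet1 line by 1.17- to 1.39-fold.

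**Figure D2:**
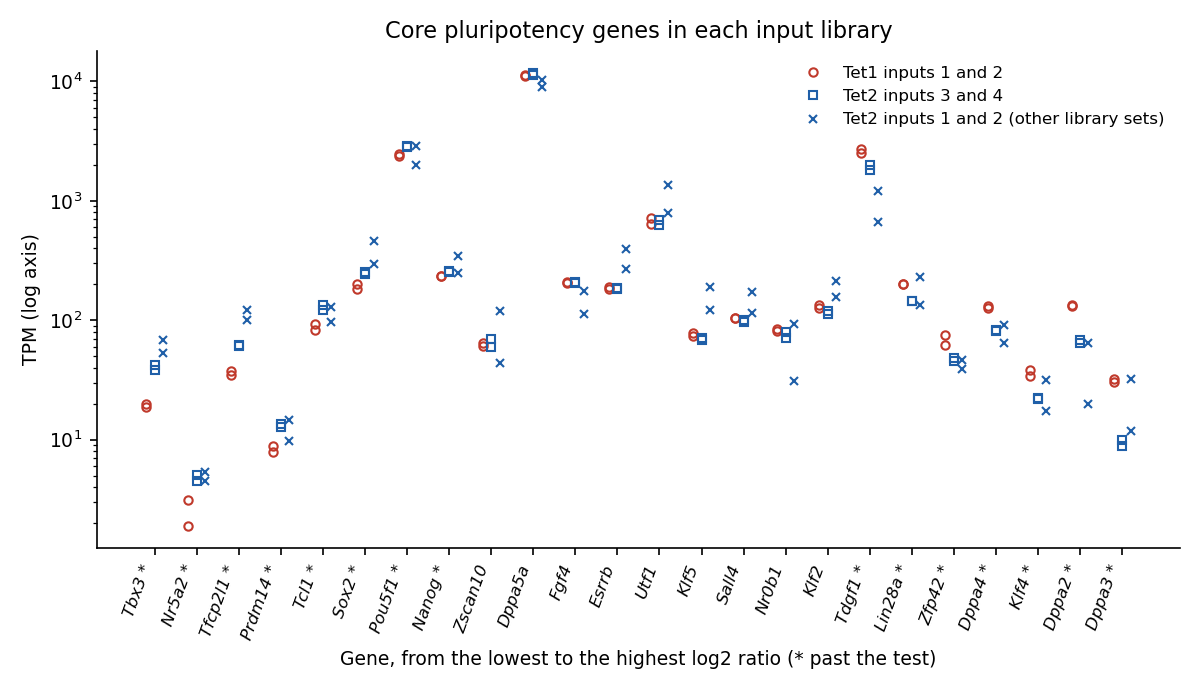
TPM (log axis) of the 24 core pluripotency genes in each input: circles are Tet1 inputs 1 and 2, squares Tet2 inputs 3 and 4, crosses Tet2 inputs 1 and 2 of other library sets, and a star marks a gene past the test between circles and squares. Genes run from Tbx3 (log2 ratio -1.16) to Dppa3 (1.63), and the crosses are often as far from the squares as the circles are.

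Wider differences were found among the auxiliary factors. Tbx3, a transcription factor that sustains self-renewal, had 18.9 and 19.9 TPM in the Tet1 inputs and 38.5 and 42.6 TPM in the Tet2 inputs. The Tet1 line was 2.24-fold lower (log2 ratio -1.16, SE 0.08, adjusted p = 5.13e-17), and lay below all 4 Tet2 inputs. Tfcp2l1 (log2 ratio -0.86), Nr5a2 (-1.03) and Prdm14 (-0.75), which also act in the naive network, were lower too, and all 3 lie on chromosome 1. In the opposite direction, Klf4, a naive factor downstream of LIF, had 38.3 and 34.2 TPM against 22.1 and 22.4 TPM (log2 ratio 0.60), and Zfp42 (Rex1) 75.8 and 62.3 TPM against 46 and 48.6 TPM (0.44). Dppa2 and Dppa4, neighbouring genes for a pair of chromatin proteins, were higher by 0.90 and 0.58 on the log2 scale.

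Dppa3 (Stella), a maternal factor that shields DNA methylation in the early embryo, showed the widest difference of the list. Its levels were 30.2 and 32.2 TPM in the Tet1 inputs and 10 and 8.82 TPM in the Tet2 inputs (log2 ratio 1.63, SE 0.15, adjusted p = 2.8e-13). Tet2 input 1, from another library set, reached 32 TPM and input 2 stood at 11.8 TPM, so that Dppa3 did not separate the lines once those were included. Klf2, Klf5, Esrrb, Nr0b1, Sall4, Utf1, Fgf4, Zscan10 and Dppa5a did not pass the test, with log2 ratios between -0.13 and 0.09. A ratio that misses the threshold does not show equal expression.

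Genes of lineage commitment were mostly low in both lines. Of 20 neuroectoderm genes, 12 fell under the filter or were not found, and 5 of the 8 tested were higher and 2 lower in the Tet1 line. Pax6, a master regulator of eye and brain, had 0.97 and 0.71 TPM against 0.10 and 0.02 TPM (log2 ratio 3.51, SE 0.49, adjusted p = 2.76e-08). It lay beyond all 4 Tet2 inputs, at a level under 1 TPM. Pax6 was the 1 gene of this list that passed the filter on low counts through the Tet1 inputs alone. Its call was therefore largely set by the filter and is not read as support. Sox3, a neural and primed-state factor, had 3.86 and 3.52 TPM against 0.71 and 0.47 TPM (2.53), and Nes, encoding the progenitor filament nestin, had 1.75 and 1.96 TPM against 0.84 and 0.93 TPM (0.97). The 8 neuroectoderm markers chosen to check identity summed to 13.6 and 13.6 TPM in the Tet1 inputs and 14.3 and 15.9 TPM in the Tet2 inputs. Most of that sum was Sox1, at 10.1 and 9.95 TPM against 12.9 and 14.1 TPM, and 6 of the 8 were under 1 TPM in all 4 libraries.

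Of 20 mesoderm genes 6 were tested and 3 were higher, none lower. Eomes, a T-box factor of the primitive streak and trophoblast, had 4.65 and 4.25 TPM in the Tet1 inputs against 1.47 and 1.37 TPM in the Tet2 inputs (log2 ratio 1.55, SE 0.17, adjusted p = 3.04e-11). Hand1, a mesoderm and trophoblast factor, was higher by 2.15 on the log2 scale. Both lay above all 4 Tet2 inputs, but Tet2dRBD input 1 held 4.94 TPM of Eomes, above both Tet1 inputs. Hand1, which counts in both the mesoderm and the trophoblast list, passed the filter on low counts through the Tet1 inputs alone. The call of Hand1 was therefore largely set by the filter and is not read as support. The 8 mesoderm markers summed to 7.61 and 7.08 TPM against 3.6 and 3.44 TPM, with 5 of the 8 under 1 TPM in all 4 libraries. Trophoblast genes moved in both directions, with 7 of 15 higher and 4 lower, and their marker sum did not separate the lines, at 7.93 and 8.71 TPM against 8.3 and 7.69 TPM.

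Primitive endoderm genes were mostly higher in the Tet1 inputs than in Tet2 inputs 3 and 4. Of 20 tested, 14 were higher and 4 lower, with a median log2 ratio of 0.64. Gata4, a transcription factor that defines this lineage, had 9.71 and 11 TPM in the Tet1 inputs and 1.99 and 2.29 TPM in the Tet2 inputs (log2 ratio 2.18, SE 0.14, adjusted p = 1.62e-18). Gata6 (1.87), Sox17 (1.26), the endocytic adaptor Dab2 (2.35) and the growth factor receptor Pdgfra (1.34) were higher as well. The members that were lower were the laminin genes Lama1 and Lamc1, the matrix gene Sparc and Hnf4a. In bulk RNA, fewer cells of a type and less RNA per cell cannot be told apart.

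That difference was not shared by every Tet2-tagged library. Tet2 inputs 1 and 2 held 35.2 and 17.2 TPM of Gata4, and the 4 Tet2dRBD inputs held 14.3 to 43.7 TPM. For Dab2, Tet2 inputs 1 and 2 stood at 40.3 and 14.5 TPM, around the 20.9 and 18.9 TPM of the Tet1 line. Only 1 of the 14 called genes, Pdgfra, lay above all 4 Tet2 inputs. Tet2 inputs 3 and 4 were thus the low libraries for Gata4, Gata6, Sox17 and Dab2 among all 10 inputs.

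Fibroblast genes, listed because feeder or differentiated cells would carry them, were lower in the Tet1 line, 9 of 12, with 1 higher and a median log2 ratio of -0.71. Thy1, a surface glycoprotein, had 10.7 and 12.9 TPM against 33.1 and 31.6 TPM (log2 ratio -1.55, SE 0.12, adjusted p = 1.57e-16). Col1a1, a collagen chain, had 1.69 and 1.94 TPM against 5.98 and 6.84 TPM (-1.91). The fibroblast marker sum was 64.5 and 61.2 TPM in the Tet1 inputs and 94.9 and 108 TPM in the Tet2 inputs, and Col3a1, Postn, Dcn and Lum, which define fibroblasts, were under 1 TPM in all 4. Neither Thy1 nor Col1a1 lay outside the range of all 4 Tet2 inputs.

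Genes of the 2-cell embryo, which a rare and transient fraction of ESCs expresses, were found mostly in the Tet1 inputs. Of 27 listed genes 21 were in the files and 13 were tested. All 13 passed the filter on low counts through the Tet1 inputs alone, so their being called higher was largely set by the filter, and neither their count nor their median is read as support. Of the 8 left untested, 7 had more counts in the Tet1 inputs and 1 in the Tet2 inputs, with at most 71 counts in a Tet1 input and 6 in a Tet2 input. The Zscan4, Tcstv and Gm4340-like genes are families of near-identical copies, so the division of reads among members is uncertain and the members are not independent. Zscan4c had 3.73 and 1.97 TPM in the Tet1 inputs and 0.11 and 0.18 TPM in the Tet2 inputs (log2 ratio 4.24, SE 0.36, adjusted p = 2.08e-14). Zscan4f had 1.6 and 1.73 TPM in the Tet1 inputs and no counts in the Tet2 inputs. Against a floor of 3 counts over the Tet2 group, Zscan4a, Zscan4b and Zscan4f were at least 24.9-, 21.5- and 32.3-fold higher.

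Tcstv3 had 9.49 and 8.55 TPM against 0.26 and 0.07 TPM, and Gm4340, the most abundant of the 2-cell genes named here, had 17.0 and 17.2 TPM against 0.46 and 0.42 TPM (log2 ratio 5.16, SE 0.24, adjusted p = 3.72e-24). Zscan4c, Zscan4f, Tcstv3 and Gm4340 each lay above all 4 Tet2 inputs. Since they passed the filter through the Tet1 inputs alone, neither that place nor their p-values are read as support. Tet2dRBD inputs 3 and 4 held 3.63 and 4.43 TPM of Gm4340, between the lines, and whether a few cells or all cells carried these transcripts was not measured.

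Genes of the formative or primed state and of DNA methylation included some of the strongest changes at high expression. Dnmt3b, a de novo DNA methyltransferase, had 109 and 110 TPM in the Tet1 inputs and 31.9 and 31.4 TPM in the Tet2 inputs (log2 ratio 1.7, SE 0.08, adjusted p = 7.57e-24). It lay above all 4 Tet2 inputs, which reached 87 TPM, but 1 Tet2dRBD input held 137 TPM. Its cofactor Dnmt3l had 486 and 493 TPM against 136 and 119 TPM (log2 ratio 1.84, SE 0.09, adjusted p = 2.27e-24). Tet2 inputs 1 and 2, at 559 and 463 TPM, were close to the Tet1 line for Dnmt3l, so only inputs 3 and 4 were low.

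Dnmt3a (log2 ratio 0.95) and the maintenance enzyme Dnmt1 (0.98) were higher too, again within the range of all Tet2 inputs. Of 22 tested genes that write, read or erase DNA methylation, 10 were higher and 2, Tet2 and Mbd2, lower. The share called was 54.5%, against 59.8% of all genes tested, so the list as a whole did not stand out. Neither of the lower calls held with the 6 inputs of the library set fitted together. Among 18 formative and primed genes 10 were higher and 5 lower. The lower genes included Otx2, an early driver of the primed state, at 5.97 and 6.36 TPM against 7.41 and 7.42 TPM (log2 ratio -0.36), and Zic5 (-0.92).

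For the Polycomb repressive complex 2, which methylates histone H3 at repressed genes, 7 of 12 members were higher and 2 lower. Jarid2, a substrate-recruiting subunit, had 151 and 141 TPM against 82.8 and 86 TPM (log2 ratio 0.70), the catalytic subunit Ezh2 52.1 and 40.5 TPM against 31.2 and 32.9 TPM (0.43) and Eed 115 and 94.8 TPM against 77 and 79.4 TPM (0.33). Suz12 was lower (-0.35), but with the 6 inputs of the library set fitted together no member was called lower and Ezh2 lost its call. Ezh2, Eed and Jarid2 lay above all 4 Tet2 inputs. Eed and Ezh2 did not lie above the Tet2dRBD inputs. Inputs 3 and 4 of that line held 112 and 127 TPM of Eed and 35.9 and 51.6 TPM of Ezh2. Jarid2 did lie above them, with 126 and 134 TPM in Tet2dRBD inputs 3 and 4.

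In Nodal signalling, which uses secreted TGF-beta ligands and is held in check by the Lefty proteins, neighbouring inhibitors went opposite ways. Lefty1 had 191 and 183 TPM in the Tet1 inputs and 55.8 and 61.9 TPM in the Tet2 inputs (log2 ratio 1.57, SE 0.08, adjusted p = 2.84e-22). Lefty2 had 84.9 and 74.5 TPM against 134 and 146 TPM (-0.91, SE 0.08, adjusted p = 5.42e-14). Both are on chromosome 1, as is Inhbb. Inhbb, a subunit of activin B, had 35.4 and 35.5 TPM against 96.6 and 99 TPM (-1.56), and the ligand Nodal 77.5 and 77.4 TPM against 89.2 and 92.1 TPM (-0.32).

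Lefty1 lay above all 4 Tet2 inputs, whereas Lefty2, Inhbb and Nodal lay within their range: Tet2 input 1 held 7.21 TPM of Inhbb and input 2 67.4 TPM. For Lefty1, 1 Tet2dRBD input reached 185 TPM, between the 2 Tet1 inputs. Over the 18 tested members 7 were higher and 9 lower, with a median of -0.26.

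Wnt target genes included some wide differences. Of 15 tested, 7 were higher and 3 lower, and 6 of those higher lay above all 4 Tet2 inputs. Lef1, a transcription factor of the pathway and itself a target, had 10.9 and 12.2 TPM in the Tet1 inputs and 1.1 and 0.86 TPM in the Tet2 inputs (log2 ratio 3.46, SE 0.18, adjusted p = 2.34e-22). Wnt8a (2.71), Sp5 (1.96), Axin2 (1.7) and Dkk1 (1.44), widely used Wnt readouts, were higher. Tet2dRBD inputs 3 and 4 held 8.33 and 7.82 TPM of Dkk1, above the 5.4 and 5.25 TPM of the Tet1 inputs, and 1 Tet2dRBD input reached 9.64 TPM of Lef1. In this list 2 genes, counted among the 15 tested, passed the filter through the Tet1 inputs alone. Any call of these 2 was largely set by the filter, so the counts of the list are not read as support. Tcf7l2 was lower (-1.57), and the level of the effector Ctnnb1 did not pass the test. Downstream of FGF and ERK, 12 of 22 were higher and 3 lower, with the phosphatase Dusp4 (1.71), Jun (1.43) and the inhibitor Spry4 (1.27) ahead. Among LIF and BMP genes 6 of 20 were higher and 7 lower, or 2 and 8 with upper-quartile scaling.

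Imprinted genes, expressed from 1 parental allele and known to vary between ESC lines, held a pair of the widest differences at appreciable levels. Peg10, a retrotransposon-derived, paternally expressed gene at chr6:4697306-4710514, had 223 and 199 TPM in the Tet1 inputs and 21.9 and 20.7 TPM in the Tet2 inputs (log2 ratio 3.21, SE 0.09, adjusted p = 5.16e-34). The lines were 9.26-fold apart, and no other input exceeded 75.6 TPM. Sgce, its paternally expressed neighbour, was higher by 0.75 on the log2 scale. Cdkn1c, a maternally expressed inhibitor of cyclin-dependent kinases at chr7:150644255-150646955, had 96.6 and 94.6 TPM against 9.83 and 12.5 TPM (log2 ratio 3.0, SE 0.10, adjusted p = 1.78e-30).

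For Cdkn1c the Tet2 inputs 1 and 2 stood at 12.4 and 26.3 TPM, but 1 Tet2dRBD input reached 84.8 TPM. Kcnq1ot1, the antisense RNA of the same imprinted domain, was higher by 0.82, and Grb10 by 1.63. Of 34 imprinted genes tested, 13 were higher and 10 lower, with a median of 0.09, and 10 of the 13 lay above all 4 Tet2 inputs. The growth factor Igf2 had 4.93 and 5.92 TPM against 2.41 and 1.94 TPM (1.23), within the range of all Tet2 inputs. Strand-specific counting is not stated in the sources used here, so reads of overlapping sense and antisense transcripts could not be separated. Xist was at most 0.02 TPM in the 4 libraries.

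Glycolysis and hypoxia-response genes had a larger share higher in the Tet1 line than any other list apart from the 2-cell genes. Of 26 tested, 21 were higher in the Tet1 line and 1 lower, with a median log2 ratio of 0.82. Pkm2, the pyruvate kinase of proliferating cells, had 3151 and 3482 TPM in the Tet1 inputs and 1086 and 1030 TPM in the Tet2 inputs (log2 ratio 1.55, SE 0.09, adjusted p = 4.24e-20). Eno1, the preceding enzyme enolase, had 390 and 483 TPM against 144 and 128 TPM (1.59), and Ldha and Pgk1 were higher by 1.09 and 1.13. Bnip3, a mitophagy receptor induced in low oxygen, had 196 and 201 TPM against 71.7 and 58.8 TPM (1.51). The single lower gene was Vegfa (-0.24).

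Only 2 of these 21, Ankrd37 and the glucose transporter gene Slc2a1, lay above all 4 Tet2 inputs, against 40.4% of all higher calls. Ankrd37, a small hypoxia-induced gene, had 68.3 and 78.9 TPM against 18.5 and 19.2 TPM (log2 ratio 1.87, SE 0.12, adjusted p = 1.92e-19), with 38.6 and 19.7 TPM in Tet2 inputs 1 and 2. For Eno1, Tet2 inputs 1 and 2 held 1222 and 1771 TPM, far above the Tet1 line, and for Pkm2 3244 and 3095 TPM, much like it. Tet2dRBD inputs 3 and 4 were close to Tet2 inputs 3 and 4 for Eno1, at 186 and 151 TPM, and for Pkm2, at 1292 and 1283 TPM, while Tet2dRBD inputs 1 and 2 held 1240 and 1452 TPM of Eno1. The low levels of Eno1 and Pkm2 were thus found in inputs 3 and 4 of both the Tet2 and Tet2dRBD lines and not in every library of the Tet2 line.

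Because these genes moved together, the promoters of 3 members that were higher in the Tet1 line are shown. They are the members called higher with the widest ratio among those with a single start site in the RefSeq table (build GRCm38.p6, whose coordinates are not those of mm9), each running from 250 bases before to 50 after the start. The capitals mark ACGTG, the core of the hypoxia response element, read on either strand, or the palindrome CACGTG, which holds it on both strands and is also the E-box of Myc and Usf proteins.

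Ankrd37: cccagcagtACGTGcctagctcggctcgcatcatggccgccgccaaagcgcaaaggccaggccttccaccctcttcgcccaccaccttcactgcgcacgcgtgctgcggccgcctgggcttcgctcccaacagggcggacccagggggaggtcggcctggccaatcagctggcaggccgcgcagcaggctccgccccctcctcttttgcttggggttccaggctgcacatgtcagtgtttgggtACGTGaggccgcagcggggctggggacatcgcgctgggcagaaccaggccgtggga
Bnip3: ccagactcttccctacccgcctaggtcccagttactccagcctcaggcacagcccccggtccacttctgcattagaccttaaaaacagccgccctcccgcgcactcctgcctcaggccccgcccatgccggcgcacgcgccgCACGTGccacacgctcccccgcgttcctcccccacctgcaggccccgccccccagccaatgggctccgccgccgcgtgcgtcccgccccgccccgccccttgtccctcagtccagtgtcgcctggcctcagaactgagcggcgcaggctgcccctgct
Pfkp: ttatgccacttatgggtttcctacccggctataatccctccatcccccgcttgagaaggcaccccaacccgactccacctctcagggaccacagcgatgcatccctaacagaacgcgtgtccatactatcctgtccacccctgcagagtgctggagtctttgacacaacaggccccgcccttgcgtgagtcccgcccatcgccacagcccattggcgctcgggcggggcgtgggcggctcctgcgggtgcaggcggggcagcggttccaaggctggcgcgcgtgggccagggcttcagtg

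Ankrd37 lies at chr8:45999801-46000100, Bnip3 at chr7:138909457-138909756 and Pfkp, encoding a phosphofructokinase, at chr13:6648722-6649021, all on the minus strand. Ankrd37 held 2 matches, Bnip3 2 that form 1 palindrome, and Pfkp none, although Pfkp was higher by 1.35 on the log2 scale. Of the 24 list genes with a window, 18 (75%) held the motif, against 21.8% of 27025 genes in the table and 29.9% of 9057 tested genes with a window. Within the list, 14 of 19 genes called higher held it and 4 of the 5 others did. A match is a description of the sequence, and binding at these windows was not measured.

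Other metabolic and stress lists were less uniform. Of 24 genes of the amino acid response under Atf4, 16 were higher and none lower, led by Mthfd2 and Ddit4 (1.00 each), and 3 of the 16 lay above all 4 Tet2 inputs. Of 16 oxidative stress genes 11 were higher and 2 lower. Gpx2, a glutathione peroxidase, had 125 and 128 TPM against 16.2 and 17.1 TPM (log2 ratio 2.83, SE 0.10, adjusted p = 4.57e-29) and exceeded every other input. Hmox1, heme oxygenase, had 143 and 155 TPM against 48.6 and 44.4 TPM (1.58), and lies on chromosome 8. Cholesterol synthesis genes were higher in 15 of 24 cases and lower in 4.

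The p53 targets were lower in 11 of 19 cases and higher in 4, with a median of -0.27. Off chromosomes 1 and 8 the median was -0.13, with 8 lower and 4 higher of 16. The lower genes included Perp (-1.07), Gdf15 (-0.97, on chromosome 8) and Btg2 (-0.82, on chromosome 1). Interferon and antigen-presentation genes split 6 higher and 7 lower of 15 (3 and 7 with upper-quartile scaling), heat shock and ER stress genes 9 and 8 of 20, and germline genes 4 and 6 of 18. In the germline list Sohlh2, a factor of germ cell differentiation, had 10.7 and 11.5 TPM in the Tet1 inputs and 51.3 and 51.2 TPM in the Tet2 inputs (log2 ratio -2.31, SE 0.10, adjusted p = 4.59e-26), below all 4 Tet2 inputs. Of 26 cell cycle genes 13 were higher and 4 lower, Cdkn1c having the widest ratio. Over all lists, 321 of 433 tested genes were called (74.1%), against 59.8% of all genes tested. Shares near that of all genes tested were found for the germline (55.6%), core pluripotency (62.5%), LIF and BMP (65.0%) and cell cycle (65.4%) lists.

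**Figure D3:**
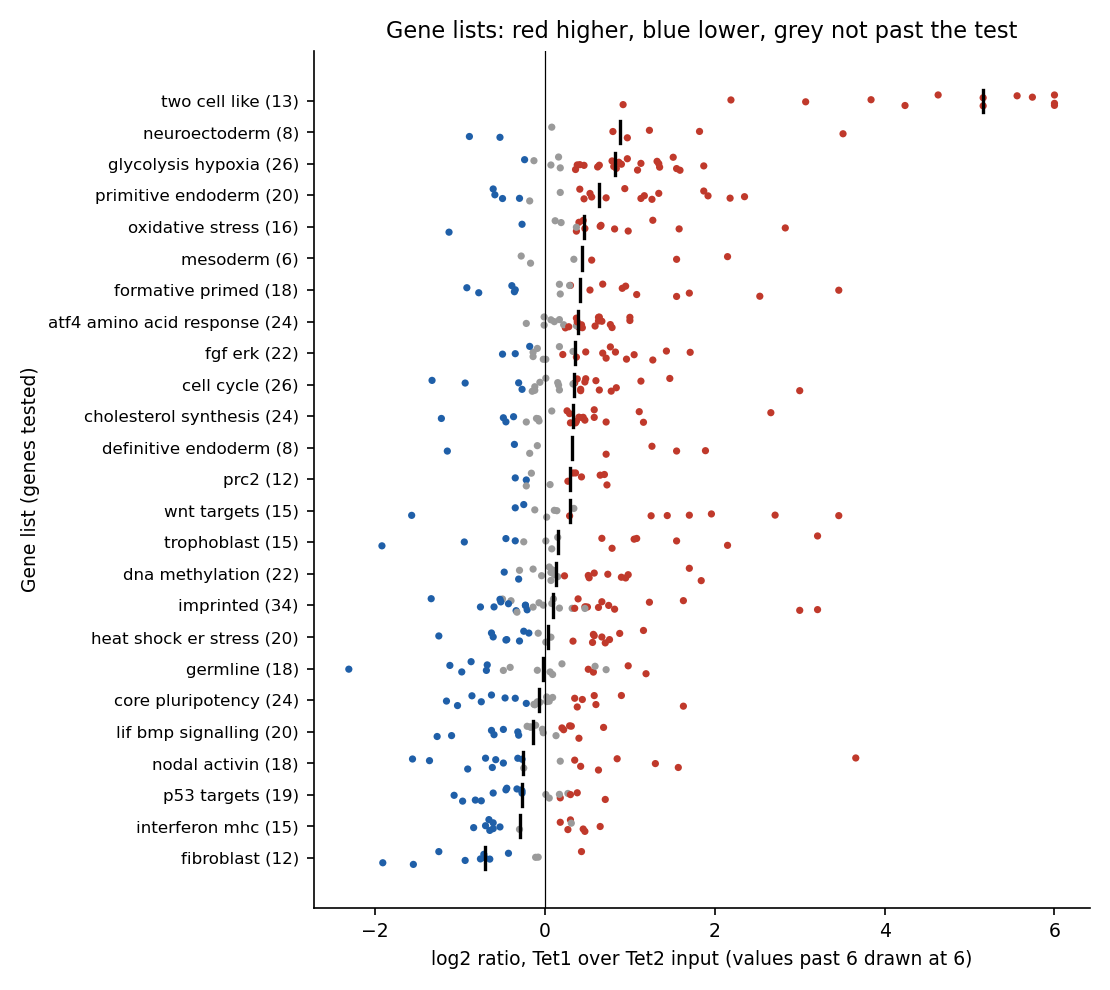
Log2 ratio of Tet1 over Tet2 input (horizontal) for every tested member of the 25 lists with 3 or more tested genes, 1 row a list with the number tested in parentheses; red points were higher, blue lower and grey did not pass the test, and the black bar is the median. The 13 genes of the 2-cell list, which all passed the filter through the Tet1 inputs alone, lie far to the right, and the medians are 0.82 for glycolysis and hypoxia, core pluripotency at -0.07 and fibroblast genes at -0.71.

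The ratios also depended on chromosome. Among 689 tested genes on chromosome 1 the median log2 ratio was -0.59, a ratio of 0.664, and 84.8% of them were below 0. On chromosome 1, 492 genes (71.4%) were lower and 47 higher. Among 684 genes on chromosome 8 the median was 0.42, a ratio of 1.34, with 424 genes (62.0%) higher and 58 lower. The other autosomes had medians between -0.042 and 0.053, and chromosome X stood at 0.138.

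**Figure D4:**
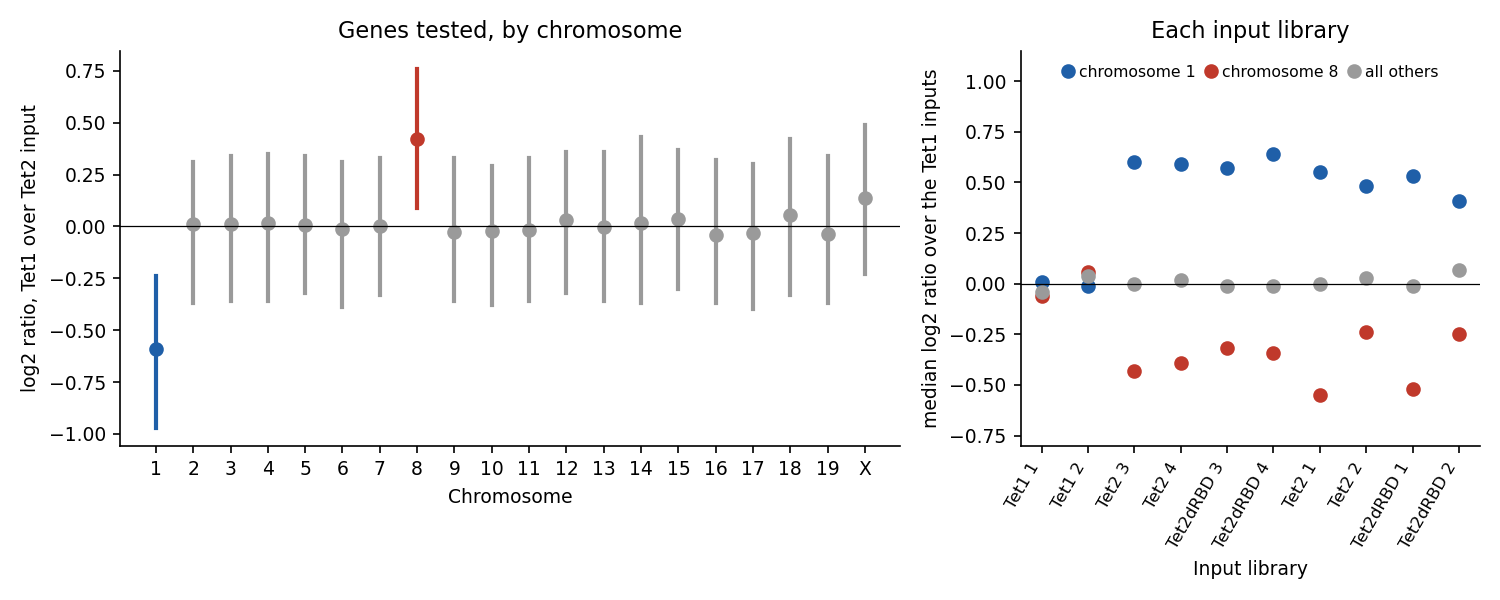
Left, median (point) and quartiles (bar) of the log2 ratio of Tet1 over Tet2 input for the genes tested on each chromosome; chromosome 1 lies at -0.59 and chromosome 8 at 0.42. Right, the median log2 ratio of each input library over the mean of the Tet1 inputs, for chromosome 1 (blue), chromosome 8 (red) and all others (grey); blue is at 0.41 or above and red at -0.24 or below in every Tet2 and Tet2dRBD input.

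Both shifts ran along the whole chromosome. With the genes of a chromosome cut by position into 10 groups of similar size, the medians ranged from -0.71 to -0.44 on chromosome 1 and from 0.33 to 0.55 on chromosome 8. In the 170 groups of the chromosomes other than 1, 8 and 14 they ranged from -0.25 to 0.33. Chromosome 14 had a whole-chromosome median of 0.02 but 2 shifted stretches, singled out after their values were seen. The 86 genes of chr14:66149292-99498989 had a median of 0.54, with 59 higher and 7 lower. The 43 genes of chr14:99498652-123383257, up to the distal end, had a median of -0.65, with 28 lower and 7 higher.

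**Figure D5:**
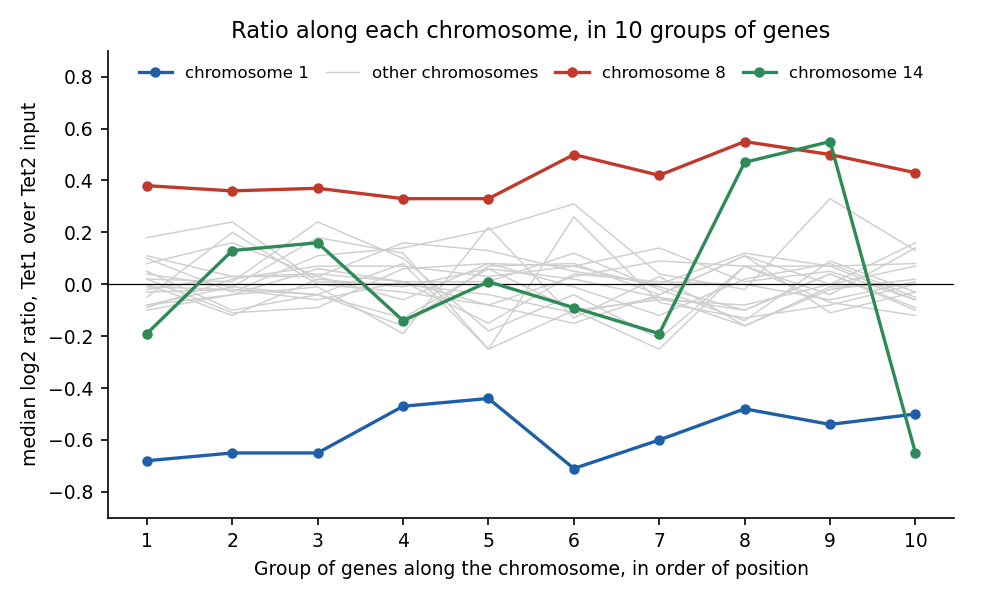
Median log2 ratio of Tet1 over Tet2 input (vertical) in 10 groups of genes along each chromosome (horizontal, in order of position). Chromosome 1 (blue) stays between -0.71 and -0.44 and chromosome 8 (red) between 0.33 and 0.55, while chromosome 14 (green) goes from 0.55 to -0.65 near its distal end and the others (grey) stay between -0.25 and 0.33.

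Unlike the glycolysis and primitive endoderm genes, the chromosome-wide shifts recurred in every other input. Relative to the Tet1 inputs, the median gene of chromosome 1 stood at 1.51 and 1.5 in Tet2 inputs 3 and 4, at 1.46 and 1.39 in Tet2 inputs 1 and 2, and at 1.33 to 1.55 in the Tet2dRBD inputs. Chromosome 8 stood at 0.745 and 0.764 in Tet2 inputs 3 and 4, at 0.683 and 0.848 in inputs 1 and 2, and at 0.697 to 0.839 in the Tet2dRBD inputs. Genes on the remaining chromosomes stayed at 0.994 to 1.05. The raised stretch of chromosome 14 stood at 0.657 to 0.793 in the 4 Tet2 inputs and at 0.579 to 0.808 in the Tet2dRBD inputs. The distal stretch of chromosome 14 stood at 1.3 to 1.64 in the 4 Tet2 inputs and at 0.978 to 1.6 in the Tet2dRBD inputs. Mouse ESC lines are known to gain or lose whole chromosomes in culture, chromosomes 1 and 8 among them, but no DNA was analysed here and the part of chromosome number in these ratios was not tested.

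Chromosomes 1 and 8 held more differences than their share of genes. They had 10.8% of the genes tested, 1021 of the calls (13.4%) and 267 of those of 2-fold or more (19%). Of their 1373 genes 19.4% differed by 2-fold or more, against 9.73% of the 11109 genes elsewhere. Outside them, 6451 genes (58.1%) were called and 1081 by 2-fold or more. Of the pluripotency calls, Tfcp2l1, Nr5a2 and Prdm14 lie on chromosome 1 and Zfp42 on chromosome 8. Off both chromosomes the core list had 6 genes higher and 5 lower of 19, with a median of -0.06. Lefty1 was 2.97-fold higher although it lies on chromosome 1, and Atp2b4, a calcium pump gene at chr1:135599255-135697618, was lower by more than the chromosome's median, with 0.70 and 0.78 TPM against 9.32 and 10 TPM (log2 ratio -3.82, SE 0.13, adjusted p = 1.78e-30). Glycolysis and hypoxia genes off both chromosomes were higher in 19 of 24 cases, with a median of 0.80.

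Among genes at 5 TPM or more, the widest differences were in genes of development and in unnamed transcripts. Wt1, a zinc finger factor of kidney and gonad at chr2:104966686-105013773, had 5.76 and 5.10 TPM in the Tet1 inputs and 0.16 and 0.20 TPM in the Tet2 inputs (log2 ratio 4.78, SE 0.25, adjusted p = 2.52e-22). Dok2, a signalling adaptor of blood cells in the raised stretch of chromosome 14, had 26.8 and 29.7 TPM against 1.96 and 2.17 TPM (3.68). The transcript 5430411K18Rik had 27.5 and 25.2 TPM in the Tet1 inputs, and no other input was above 3.41 TPM. Wt1, Dok2 and 5430411K18Rik all lay above all 4 Tet2 inputs, though for Wt1 1 Tet2dRBD input, at 5.95 TPM, reached the Tet1 level. Wt1 was well under 1 TPM in Tet2 inputs 3 and 4, so neither its place nor its p-value is read as support.

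In the other direction, Gm13580, a predicted gene at chr2:60249582-60250636, had 0.98 and 1.49 TPM in the Tet1 inputs and 32.3 and 28.7 TPM in the Tet2 inputs (log2 ratio -4.71, SE 0.25, adjusted p = 8.4e-22). All other inputs held at least 9.86 TPM. Crtac1, a cartilage matrix gene, had 1.24 and 1.75 TPM against 12.6 TPM in both Tet2 inputs (-3.17). Vax2, an eye homeobox gene, and Kiss1, which encodes a neuropeptide precursor, had log2 ratios of -3.32 and -3.01. Gm13580 and Kiss1 passed the filter on low counts through the Tet2 inputs alone. The calls of Gm13580 and Kiss1 were therefore largely set by the filter, and neither they nor their p-values are read as support.

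Mir684-1, a multicopy microRNA locus, was at 0 in both Tet1 inputs and at 194 and 315 TPM in Tet2 inputs 3 and 4, at least 52.9-fold lower in the Tet1 line against 3 counts over the group. It was also at 0 in Tet2 inputs 1 and 2 and at 262 and 379 TPM in Tet2dRBD inputs 3 and 4. Its level thus differed between inputs of the same line. These TPM values rest on 62 and 98 counts, since a very short gene gains a high TPM from few reads. Mir684-1 also passed the filter through Tet2 inputs 3 and 4 alone, so its call is not read as support.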

How the data were processed

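Per the submitters' processing notes, the authors trimmed reads with Trimmomatic after FastQC, aligned them with Bowtie2 to mm9 with a RefSeq transcriptome and quantified genes with RSEM; versions are not given in the sources used here. The deposited files hold an expected count per gene, which is an estimate and need not be whole, and a deposited level labelled TPM + 1, from which 1 was subtracted to give TPM. RNA came from total RNA, and the libraries are labelled polyA RNA.

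Expected counts were rounded and tested with edgeR 4.0.16 (R 4.3.3; quasi-likelihood F test, TMM scaling) on the 4 libraries, without covariates, over the 12759 genes with at least 1 CPM in 2 libraries. Calls used a Benjamini-Hochberg adjusted p below 0.05. Ratios are log2 of Tet1 over Tet2, and the SE is the ratio divided by the root of F. The common dispersion was 0.00414, a coefficient of variation of 6.44% between libraries. The test was checked on simulated data. Replicates of a line differed by more than sampling noise (mean chi-square per gene 8.49 and 3.78), so both were kept.

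The text names the Tet genes, all core pluripotency genes, genes the study follows, up to 4 called members with the widest ratio of each other list (mean of at least 1 TPM in the higher line), and the 12 genes with the widest ratio each way (at least 5 TPM, groups not overlapping). Other list members are named as examples and were chosen after their values were seen. The libraries, 26 lists and rules were chosen with earlier results of these data known, so no list is independent evidence. Of 533 listed genes 525 were in the files and 433 were tested. Besides the genes noted above, some passed the filter through 1 line alone. Through the Tet1 inputs these were 3 germline genes and 1 each of the Nodal, cell cycle and definitive endoderm lists. Through the Tet2 inputs they were 1 cell cycle gene and 1 of the LIF and BMP list. The calls of such genes are likewise not read as support.

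Alternatives were DESeq2 1.42.0, limma 3.58.1 (trend) on TPM in log2 with a pseudocount of 0.1 or 1, upper-quartile scaling, no filter, fits to 6 or all 10 inputs, a 1.5-fold threshold, a replicate block and leaving out each library. Gene positions are those of NCBIM37; RefSeq promoters are on GRCm38.p6. Guides were matched to the genome with their cloning overhang removed. Immunoprecipitated libraries were not used here. Figures were drawn with matplotlib 3.10.9. A few genes that the rule gives are not reported here.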

Additional observations from a re-analysis of the deposited data

How the results depend on the processing

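Among the 145 genes given by the naming rule, no call changed direction in any of the 12 alternatives run for single genes. Of the 136 called, 124 were called in all 12; over 1740 values, 38 lost and 5 gained a call. Against a 1.5-fold difference, which is apart from these, 102 were called and 34 were not. Tet2, Tet3, Nanog, Tdgf1, Mbd3, Mdc1, Mesp2, Nanos3, Ezh2, Tap2, Hspa1a and Cdkn2c lost a call in at least 1 alternative, and Klf2, Esrrb, Utf1 and Zscan10 gained 1. The number of called genes (7632) was 6304 with DESeq2, 7155 and 7179 with limma, 7473 with upper-quartile scaling, 7309 without a filter, 6478 with 6 inputs, 6467 with all 10, and 1853 when tested against a 1.5-fold difference. Leaving out a library gave 5387 to 7780. The 1404 genes of 2-fold or more became 659 on log2(TPM + 1), 822 beyond all 4 Tet2 inputs, and 1437 to 1521 without a library. The labels share no replicate number between the compared inputs; pairing by the order of their numbers, a replicate block gave 7550 calls and 1404 of 2-fold or more, and replicate differences of the lines did not correlate (r = -0.08 over 12759 genes). The chromosome 1 median of -0.59 was -0.64 with upper-quartile scaling, -0.52 for genes of at least 10 TPM and -0.61 to -0.55 without a library; that of chromosome 8 was 0.37 with upper-quartile scaling and 0.41 to 0.46 without a library. The interferon list had 8 called genes with 6 inputs, against 13. On log2(TPM + 0.1) the lowest correlation within a line was 0.988 and the highest between lines 0.954. With the genes of chromosomes 1 and 8 left out of the count, and without a new fit, 6611 of the calls remained and 1137 of those of 2-fold or more. That count was added after seeing the data and includes genes without a single known position. With 2 libraries a line and low counts, ratios of genes under 1 TPM are the least certain.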
